A study of Drosophila melanogaster with 2 samples.

Results

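Of 7933 isolated protein-coding genes of Drosophila melanogaster, 1956 (24.7%, Clopper-Pearson 95% interval 23.7 to 25.6) had a peak of the nuclear protein MESR4 at a start, and in 375 of these the summit lay upstream of the nearest transcription start site (TSS) of the gene itself. These 375 genes were 19.2% of the bound isolated genes (17.4 to 21), and the other 1581 had the summit downstream, 2 of them exactly on the TSS. A gene counted as isolated when no other protein-coding gene had a TSS within 1000 bp of any of its own, as 7933 of 13834 protein-coding genes did. Its summit was the one with the highest deposited signal among the reproducible summits within 500 bp of any of its TSSs. The genes were chosen by the position and signal of their summits, so summit offsets and signals, and everything they fix, are descriptions and carry no test. Intervals on shares count genes only and do not cover variation between samples.

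The data were chromatin immunoprecipitation followed by sequencing (ChIP-seq) on flies of 1 transgenic line that carried MESR4 tagged with green fluorescent protein at its C terminus. Whole embryos of both sexes were pooled over 0 to 24 h of development, and their chromatin was sonicated to 200 to 800 bp. There was 1 group, MESR4-GFP, with biological replicates 1 and 3, and no untreated, untagged or mutant group was analysed here. A description in the labels speaks of an input control for both samples, but their antibody label is MESR4 and the deposited listings name a separate control alignment. Both were therefore read as MESR4 immunoprecipitates. The sources used here do not give the promoter that drives the fusion gene, the epitope bound by the antibody or the read depth. Since all tissues of the embryo were pooled, a weak peak in many cells and a strong peak in few cells cannot be told apart.

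MESR4 is a nuclear protein with PHD fingers, which in other proteins bind histone tails, and zinc fingers. Fly promoters fall broadly into kinds with different sequence elements. Genes used in every cell often carry the DNA replication-related element (DRE), bound by DREF, or Motif 1, bound by M1BP, and BEAF-32, an insulator protein, binds a short core that lies within the DRE. Developmentally regulated promoters more often carry an initiator, a TATA box or GAGA repeats, which GAGA factor binds and keeps open.

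The sequences around 6 upstream summits are given as examples and were not chosen to be typical. All 6 held at least 1 of the motifs marked below, while those of elav and Hsp27, for example, held none. Over all 375 upstream genes, such a stretch held a DRE in 4.0% and a Motif 1 core in 5.07%. CG14100 and CG18549 had the highest signals among genes with 1 TSS, no non-coding TSS within 1000 bp and an upstream summit in both replicates. CG15536 and cib, the actin-binding thymosin-repeat protein ciboulot, each held a housekeeping element near the summit. Branchless (bnl), the fibroblast growth factor of the tracheal system, and tinman (tin), the homeobox factor of the heart, are developmental genes. Each stretch is the summit with 50 bases on each side from the RefSeq release 6 genome (dm6), 5' to 3' on the strand of the gene, and overlaps no annotated exon. Capitals mark, on either strand, the DRE (TATCGATA), the Motif 1 core (GGTCACAC), the E-box of core promoter motif 5 (CAGCTG), the TATA box (TATAAA), the GAGA element (GAGAG) and the BEAF-32 core (CGATA), which overlaps the DRE.
CG14100, chr3L:19590562-19590662, minus strand: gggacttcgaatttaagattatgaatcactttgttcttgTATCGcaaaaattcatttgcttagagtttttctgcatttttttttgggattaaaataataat
CG18549, chr3R:12449122-12449222, plus strand: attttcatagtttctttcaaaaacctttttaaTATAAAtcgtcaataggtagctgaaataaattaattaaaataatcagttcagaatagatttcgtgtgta
CG15536, chr3R:30425164-30425264, minus strand: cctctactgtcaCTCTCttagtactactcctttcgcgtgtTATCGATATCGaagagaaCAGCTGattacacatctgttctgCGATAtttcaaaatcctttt
cib, chrX:4106009-4106109, plus strand: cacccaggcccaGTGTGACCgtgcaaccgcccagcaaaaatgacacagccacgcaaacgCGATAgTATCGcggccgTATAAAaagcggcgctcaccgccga
bnl, chr3R:19836851-19836951, minus strand: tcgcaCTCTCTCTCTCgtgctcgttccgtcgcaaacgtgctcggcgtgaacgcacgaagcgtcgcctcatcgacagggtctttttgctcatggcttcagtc
tin, chr3R:21378759-21378859, plus strand: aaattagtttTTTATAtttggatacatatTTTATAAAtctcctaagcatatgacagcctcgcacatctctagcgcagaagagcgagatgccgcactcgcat

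The DRE of CG15536 shared its stretch with an E-box and a GAGA element, and the Motif 1 core of cib lay upstream of a TATA box. The stretch of bnl held a GAGA run near its 5' end and that of tin held TATA boxes, while CG14100 held only a BEAF-32 core among the marked motifs. A match is a run of letters and not a shown binding site.

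Upstream summits spread widely and were densest beside the TSS. Their median offset was -82 bp, with quartiles at -186 and -25 bp and extremes of -500 and -1 bp, against a median of 99 bp, quartiles of 55 and 135 bp and a maximum of 473 bp downstream. The bin from 20 bp to 1 bp before the TSS held 83 genes, and the bins beyond that, ending at 50, 100, 200 and 500 bp before it, held 62, 60, 88 and 82. These bins were 20, 30, 50, 100 and 300 bp wide, so the density per 10 bp was 41.5 genes next to the TSS and 20.7, 12, 8.8 and 2.73 genes in the successively farther bins. The downstream genes were densest away from the TSS, with 102 genes per 10 bp in the bin beyond 100 and up to 150 bp inside the gene. The peak region itself spanned the nearest own TSS in 251 of the 375 genes (66.9%, interval 61.9 to 71.7), against 1503 of 1581 downstream genes (95.1%). All 83 genes of the nearest bin had such a region, and 8 of the 82 genes of the farthest bin did.

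**Figure D1:**
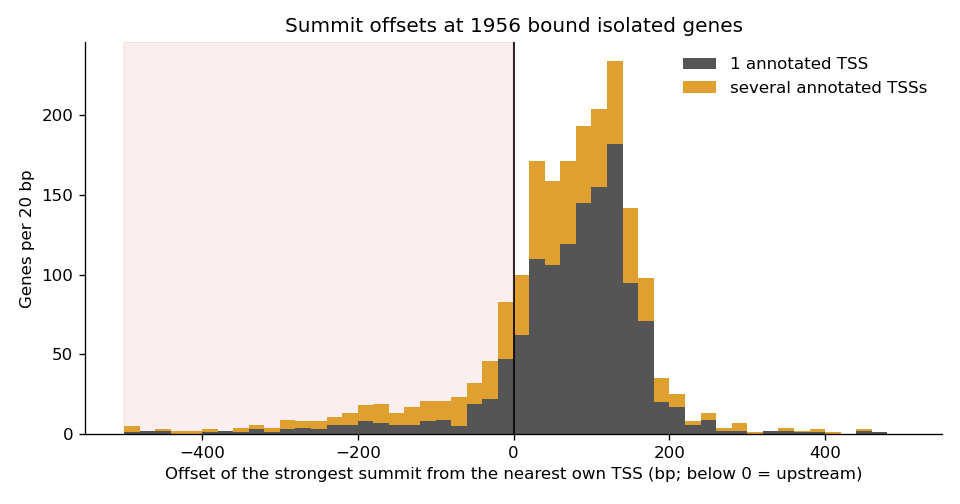
Histogram of the offset of the strongest summit from the nearest own TSS (bp, strand-aware, below 0 = upstream) for 1956 bound isolated genes, as genes per 20 bp, with genes of 1 annotated TSS in grey and genes of several in orange. The 375 genes in the shaded range spread from -500 to -1 bp around a median of -82 bp, and the downstream genes gather around 99 bp.

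Genes on either side of the dividing line were hardly apart in position. Just inside it, angel, Tap42 (a phosphatase regulator), CG31915 and Claspin (an adaptor of the replication checkpoint) had summits at -1 bp, with signals of 343, 322, 397 and 331. Just outside, Ppt2 and ida had summits at 0 bp with signals of 597 and 266, and Phb1 and Dus1 at 1 bp with signals of 337 and 493. At the far end, CG42671 had its summit at -500 bp (signal 293), followed by CG13334 at -493 bp (1632), ph-p at -491 bp (1086) and HmgZ at -491 bp (467).

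The separate list of each replicate placed most of these summits on the same side. These lists went into the reproducible list, so their positions are not independent of the choice of genes. The strongest summit was upstream in replicate 1 alone in 300 of the 375 genes (80.0%), in replicate 3 alone in 308 (82.1%) and in both in 244 (65.1%, interval 60.0 to 69.9). Over all 1956 bound isolated genes, 12.7% were upstream in both, and among the 1581 downstream genes 33 were upstream in replicate 1, 154 in replicate 3 and 4 in both. The nearest replicate summit lay a median of 11 bp away in replicate 1 and 19 bp away in replicate 3 for the upstream genes.

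The side was held more often the farther the summit lay from the TSS. Both replicates were upstream in 36.1% of the 83 genes within 20 bp and in 59.7%, 65.0%, 78.4% and 84.1% of the genes in the successively farther bins. The strongest summit was downstream in both replicates in 11 of the 375 genes. Among them, Tap42 had offsets of 107 and 143 bp in replicates 1 and 3, and ND-20, a subunit of respiratory complex I placed at -17 bp in the reproducible list, had 8 and 15 bp. The summits of replicate 3 also lay further upstream than those of replicate 1 at downstream genes, with median offsets of 75 and 108 bp. At upstream genes the medians were -51 bp in replicate 3 and -82.5 bp in replicate 1, so there replicate 3 was nearer to the TSS.

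**Figure D2:**
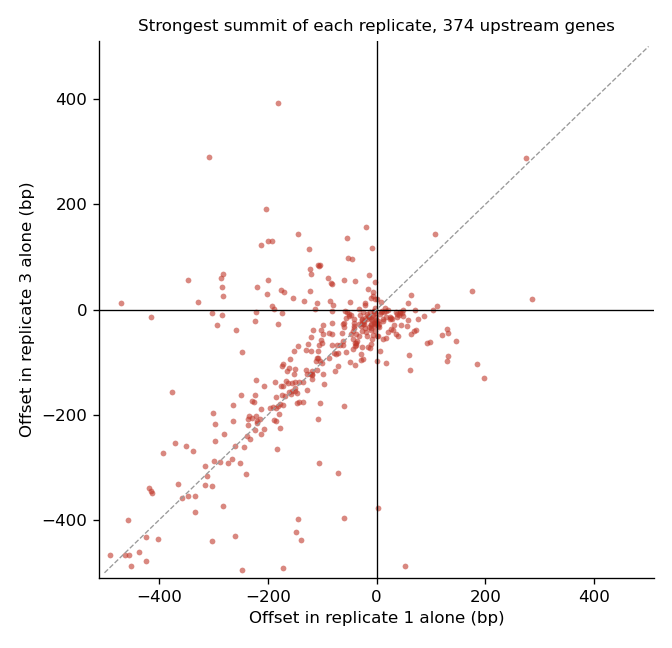
Offset of the strongest summit within 500 bp of an own TSS in replicate 1 (x axis, bp) and replicate 3 (y axis, bp) for 374 of the 375 upstream genes, the other having no replicate 1 summit in the window. The dashed line marks equal offsets, and the field below 0 on both axes holds the 244 genes upstream in both replicates.

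Upstream peaks were weaker. Their median signal was 314 (quartiles 228 and 463, range 177 to 1915), against 476 downstream (quartiles 327 and 683, range 176 to 3171), a ratio of medians of 0.661. The ranges overlapped almost fully, and a random upstream gene exceeded a random downstream one in 31.0% of pairs. The authors' signal has its own scale in each list, and within each replicate the ratio was similar. Replicate 1 gave medians of 218 upstream and 329.7 downstream (ratio 0.661), and replicate 3 gave a ratio of 0.670. When the 1956 genes were cut into 5 equal parts by signal, the upstream share was 37.8% in the weakest part, then 22.3%, 17.6% and 9.21%, and 8.95% in the strongest. Genes with a single TSS gave the same order, at 30%, 16.8%, 10.5%, 5.08% and 4.67%. The highest signals thus seldom came with an upstream summit, although 35 such genes lay in the strongest part.

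Genes with several annotated TSSs more often had the summit upstream of the nearest one. A single TSS was annotated for 172 of the 375 upstream genes (45.9%, interval 40.7 to 51.1) and for 1110 of the 1581 downstream genes (70.2%), a difference of -24.3 percentage points (Newcombe 95% interval -29.8 to -18.8). Without replicate 1, that is with the 6415 strongest summits of replicate 3 alone, it was -13.5 points (-18.5 to -8.47). With the canonical TSS alone it was -14.3 points (-20.4 to -8.37). The share with an upstream summit was 13.4% among genes with 1 TSS, 26.4% with 2, 31.4% with 3, 33.8% with 4 and 51.9% with 5 or more. The rule measured to the nearest own TSS, so a summit inside a gene between its own TSSs could count as upstream, and this applied to 132 of the 375 genes. In 79 of them the summit was in an intron of the gene and in 53 in an exon, a median of 372 bp downstream of the first own TSS. The other 243 (64.8%) had the summit before every own TSS, and 70.8% of them had a single TSS, a difference from downstream genes of 0.573 points (-5.82 to 6.41). Genes with a summit between their own TSSs cannot have a single TSS, and they were left out on the upstream side only. This raises the upstream single-TSS share by construction, so that comparison alone cannot locate the difference in TSS number. Counts over all bound isolated genes do not have this limit. Of genes with several TSSs, 71 had the summit before every own TSS, 132 between own TSSs and 471 downstream. Of genes with 1 TSS, 172 had it upstream and 1110 downstream. Summits before every own TSS were thus no more common at genes with several TSSs.

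**Figure D3:**
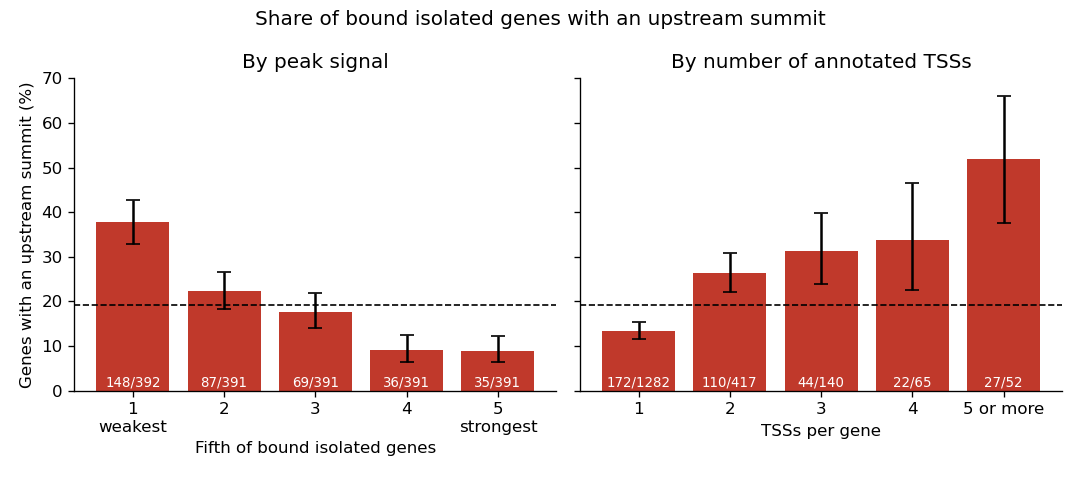
Share of bound isolated genes with an upstream summit (%) by part of the signal range, weakest to strongest (left), and by number of annotated TSSs (right), with Clopper-Pearson 95% intervals as error bars and counts at the foot of each bar. The dashed line marks 19.2% over all 1956 genes, and the share falls from 37.8% to 8.95% with signal and reaches 51.9% at 5 or more TSSs.

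The 132 genes between own TSSs had somewhat higher signals than the 243 before all of them, with medians of 361 and 294. Shaggy (sgg), the fly GSK3 kinase of Wnt signalling with 11 TSSs, was one of them. Its summit lay 199 bp before an inner TSS with a signal of 577, and a further summit 96 bp downstream had nearly the same signal, 565. Its strongest summit was at -199 bp in replicate 1 and at 131 bp in replicate 3, so the replicates took different summits. In all, 69 of the 375 genes (18.4%) had a further reproducible summit within 500 bp of an own TSS, as did 291 of 1581 downstream genes (18.4%). The further summit was downstream in 49 of the 69, and the stronger one exceeded it by a median of 1.48 times. In the full list of both replicates, which also holds background regions, 106 of the 375 genes (28.3%) had a summit downstream of the nearest own TSS within 500 bp.

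Several of the strongest upstream peaks lay between own TSSs. CG14100 (chromosome 3L) led with a signal of 1915, rank 23 of the 6415 reproducible summits, at -88 bp. Its summit was at -88 bp in replicate 1 and -91 bp in replicate 3, and it had 1 TSS. Mpcp2, a mitochondrial phosphate carrier, followed with 1649 at -4 bp, but its summit was at -6 bp in replicate 1 and 34 bp in replicate 3. RpS9, a protein of the small ribosomal subunit, had 1333 at -79 bp, in the intron after its first TSS. The elongation factor eEF1gamma had 1233 at -19 bp and CG18549 had 1212 at -124 bp. Both were upstream in both replicates.

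Some of the other strong peaks changed side between replicates, and others did not. The polyubiquitin gene Ubi-p5E had a signal of 1111 at -183 bp, with summits at 185 bp in replicate 1 and -103 bp in replicate 3. Polyhomeotic proximal (ph-p), a Polycomb repressive complex subunit, had 1086 at -491 bp in an intron, and offsets of -469 and 13 bp in replicates 1 and 3. Sry-delta, a zinc finger transcription factor, had its summit at -18 bp in the reproducible list and in both replicates (1072), with a further summit of 593 at 184 bp. CG1888 had 1307 at -229 bp and RanBPM, a Ran-binding family protein, had 1019 at 196 bp after its first TSS, and both summits lay between own TSSs.

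The rule left 112 genes with 1 TSS, no non-coding TSS within 1000 bp of the summit or TSS, and an upstream nearest summit in both replicates. Besides CG14100, CG18549 and Sry-delta, the strongest were CG1635 (919 at -136 bp), the pseudouridine synthase family gene RluA-1 (790.2 at -164 bp) and astray (aay), a phosphoserine phosphatase (766 at -184 bp). For these last 3 genes the replicates agreed closely, at -136 and -138 bp, -174 and -162 bp, and -185 and -186 bp in replicates 1 and 3. The summit of CG1635 lay inside the body of a non-coding gene and that of aay inside the gene Atat, whose TSSs lay more than 1000 bp from that of aay.

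A non-coding TSS near the summit was uncommon in both groups. Such a TSS is the annotated 5' end of a non-coding transcript, snoRNAs and pseudogenes included. Whether transcription starts there was not tested. Within 500 bp of the summit, 26 of 375 upstream genes (6.93%, interval 4.58 to 9.99) and 79 of 1581 downstream genes (5.00%) had one, a difference of 1.94 points (-0.527 to 5.12). Its interval spanned 0 in the reproducible list. With the 6415 strongest summits of 1 replicate alone the interval was clear of 0. The difference was 4.45 points (1.92 to 7.50) without replicate 1 and 3.64 points (0.800 to 7.37) without replicate 3. The interval was also clear of 0 with a window of 1000 bp (3.62 points) and in the stronger summits (4.81 points). With isolation from every annotated gene the difference was 0 points by construction. That rule removed every gene with a non-coding TSS within 1000 bp of an own TSS, so none could lie within 500 bp of a summit. Within 200 bp, a distance chosen after the data were seen, 17 upstream genes (4.53%) and 26 downstream genes (1.64%) had one, a difference of 2.89 points (1.04 to 5.55). The nearest non-coding genes of the 26 were 17 of the general ncRNA class, 5 small nucleolar RNAs (snoRNAs), 3 pseudogenes and 1 transfer RNA. The nearest one was on the opposite strand in 22 of the 26 upstream genes and likewise in 65 of the 79 downstream genes.

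In 9 upstream genes (2.40%) and 5 downstream genes (0.316%) the summit was nearer to a non-coding TSS than to any own TSS, a difference of 2.08 points (0.875 to 4.19). The distance to the own TSS enters this comparison and is larger for many upstream genes. All 9 non-coding TSSs were on the opposite strand. CG13334 on 2R, with a signal of 1632, had its summit 493 bp before its own TSS and 3 bp from that of a snoRNA gene, and replicate 1 had no summit in its window. Bka had its summit (1141) 366 bp before its TSS and 14 bp from that of snoRNA:Me18S-A1576, which guides methylation of the small ribosomal RNA. CG4036 had a summit (845) 272 bp before its TSS and 135 bp from that of the hairpin RNA gene CR18854. MED4, a Mediator subunit, had its summit (672) 81 bp before its TSS and 32 bp from an antisense RNA's. The others included CG12863 near a further snoRNA, brwl, CG31522 and cubitus interruptus (ci), whose summit was 73 bp from an antisense RNA's TSS.

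The annotation at the summit is largely fixed by the rule. Of the 375 upstream summits, 203 were intergenic (54.1%), 79 in an own intron, 53 in an own exon, 29 in another protein-coding gene and 11 in a non-coding gene. The next protein-coding gene was farther away, with another TSS within 2000 bp of the summit in 23.5% of upstream and 33.9% of downstream genes (difference -10.4 points, -15.1 to -5.35). Upstream shares of the large chromosome arms lay between 17.5% (2R) and 23.4% (X), and chromosome 4 had 2 of 31 genes. Genes on X made up 21.1% of upstream and 16.4% of downstream genes (difference 4.68 points, 0.413 to 9.43). RefSeq start sites gave the same side for all 375 genes, which adds no check, since both annotations come from FlyBase.

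Promoter sequence differed between the groups, and sequence did not enter the rule. In the 300 bp from 250 bp before to 50 bp after the nearest own TSS, a GAGA element was found in 178 of 375 upstream genes (47.5%), in 21.5% of downstream genes and in 36.6% of the 5977 isolated genes without a peak. The upstream minus downstream difference was 26 points (20.5 to 31.4). The CA repeat (CACACACA) was found in 10.1%, 2.91% and 5.59% of these windows (7.22 points, 4.4 to 10.8) and the initiator (TCAGTT) in 26.4%, 18.2% and 32.6% (8.25 points, 3.60 to 13.3). All motifs were matched on both strands, and a Motif 1 core and a CA repeat can share letters.

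The housekeeping elements went the other way. The BEAF-32 core was found in 41.6% of upstream windows, 64.1% of downstream windows and 34.8% of windows of genes without a peak, an upstream minus downstream difference of -22.5 points (-27.9 to -16.9). The DRE was in 8.80%, 19.7% and 1.86% (-10.9 points, -14.1 to -7.07) and the Motif 1 core in 8.80%, 20% and 0.736% (-11.2 points, -14.4 to -7.38). Upstream genes thus carried both elements less often than downstream genes, but more often than genes without a peak. The TATA box, named above with developmentally regulated promoters, was also less common upstream, unlike the GAGA element and the initiator. It was in 37.3%, 46.9% and 43.3% (-9.54 points, -14.9 to -3.97). The A tract (AAAAAAAA) was in 11.5%, 18% and 15.8% (-6.50 points, -9.95 to -2.45).

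For 3 other motifs the interval of the difference over all bound genes spanned 0 in these TSS windows. The E-box was in 26.7% of upstream, 22.2% of downstream and 13.3% of unbound windows (4.47 points, -0.257 to 9.56). Its interval was clear of 0 in genes with 1 TSS (7.53 points, 0.666 to 15.1), above the median signal (13.6 points, 5.04 to 23.4) and for summits before all own TSSs (6.19 points, 0.489 to 12.5), while below the median signal the difference was -3.05 points (-8.92 to 3.29). The core bound by the Polycomb recruiter Pho (GCCAT) was in 35.7%, 37.5% and 43.2% (-1.77 points, -7.04 to 3.73), and the site of the early embryonic factor Zelda (CAGGTAG) in 0.800%, 1.08% and 2.36% (-0.275 points, -1.10 to 1.30). The intervals were not adjusted for the 11 motifs. Base composition moved with the groups, with a median GC content of these windows of 41.3% upstream, 35.3% downstream and 40.7% without a peak, and its part in the motif shares was not tested.

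**Figure D4:**
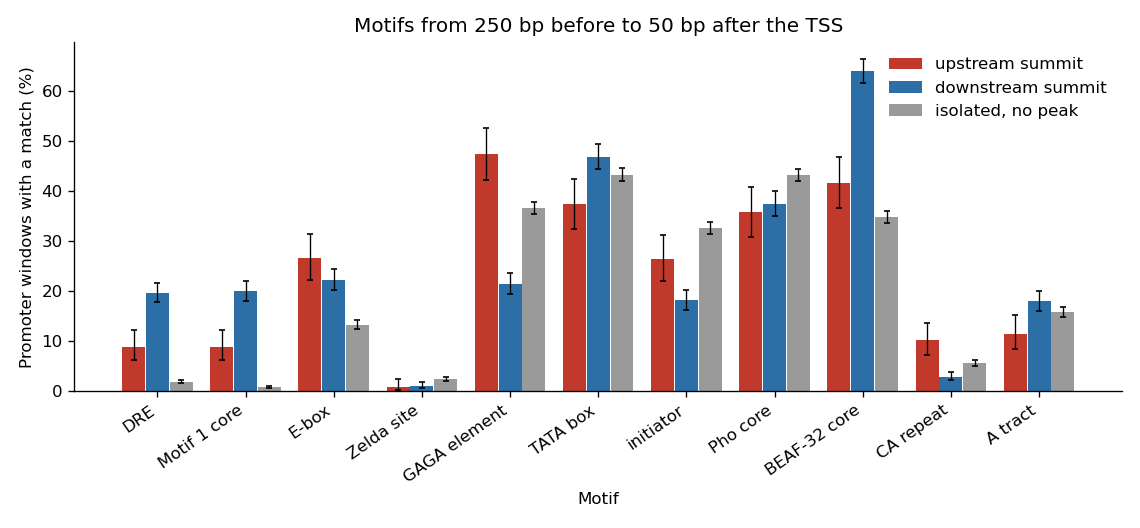
Share of windows from 250 bp before to 50 bp after the TSS (%) with a match to each of 11 motifs, for 375 genes with an upstream summit (red), 1581 with a downstream summit (blue) and 5977 isolated genes without a peak (grey), with Clopper-Pearson 95% intervals. GAGA elements stand at 47.5%, 21.5% and 36.6% in that order, and BEAF-32 cores at 41.6%, 64.1% and 34.8%.

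The differences in GAGA element, CA repeat, BEAF-32 core, DRE and Motif 1 core had the same sign, with an interval clear of 0, in each subset examined. The GAGA element was in 40.7% of upstream and 18.1% of downstream genes with 1 TSS. Among genes with a signal below the median of bound genes it was in 49.3% and 27.5%, and among those above it in 42.7% and 16.7%. It was in 49.2% of the 262 genes with the nearest summit upstream in both replicates, in 44.9% of the 243 genes with the summit before all own TSSs and in 52.3% of the 132 between them, each against 21.5% of downstream genes. The TATA box difference was no longer clear of 0 in genes with 1 TSS (-5.94 points, -13.7 to 2.08) and for summits before all own TSSs (-4.07 points, -10.6 to 2.68), nor the initiator difference below the median signal (4.18 points, -1.54 to 10.3). The A tract difference was not clear of 0 in genes with 1 TSS (-4.92 points, -9.83 to 1.36), above the median signal (-3.32 points, -9.26 to 4.95) and between own TSSs (-6.60 points, -11.4 to 0.187).

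Windows around the summit lie in different parts of the promoter in the 2 groups. Within 50 bp of the summit, the DRE was in 4.0% of upstream and 0.759% of downstream genes (3.24 points, 1.58 to 5.76), the Motif 1 core in 5.07% and 2.34% (2.73 points, 0.728 to 5.51), and the TATA box in 17.9% and 7.08% (10.8 points, 6.98 to 15.1). The GAGA element was in 18.7% and 11.8% (6.90 points, 2.91 to 11.4), the BEAF-32 core in 19.7% and 13.6% (6.13 points, 2.02 to 10.7) and the E-box in 11.5% and 7.46% (4.0 points, 0.835 to 7.82). Within 100 bp of the summit, the Motif 1 core turned to 5.87% of upstream and 7.91% of downstream genes (-2.04 points, -4.47 to 1.07). The intervals of the BEAF-32 core (3.12 points, -2.09 to 8.56) and the E-box (2.06 points, -2.09 to 6.70) then spanned 0. Those of the DRE (3.28 points, 0.826 to 6.47), the TATA box (14.2 points, 9.39 to 19.3) and the GAGA element (12.1 points, 7.11 to 17.4) did not. The Pho core was then in 26.4% and 31.8% (-5.42 points, -10.2 to -0.219). The CA repeat was clear of 0 within 50 bp (1.61 points, 0.142 to 3.89) and within 100 bp (2.58 points, 0.0964 to 5.79). Within 300 bp of the summit, 334 DREs of downstream genes lay a median of 138 bp before the summit and 36 bp before the TSS, with 98.2% on the upstream side of the summit. The 53 DREs of upstream genes lay a median of 57 bp before the summit and 74 bp before the TSS, with 69.8% on the upstream side. For the Motif 1 core, 60.5% of 38 matches at upstream genes and 97.5% of 322 at downstream genes were on the upstream side of the summit. The strongest upstream genes with a DRE beside the summit were Alg3, dod and CG13096, at -53, -37 and -29 bp. Those with a Motif 1 core were CG5721, lute and CG11050, at -16, -15 and -22 bp.

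By function, genes of basic cell maintenance were seldom upstream. Of 8 such lists pooled, 6 of 95 bound isolated genes were upstream (6.32%, interval 2.35 to 13.2), against 19.2% of all bound isolated genes. These 6 all had several TSSs, and 0 of the 63 genes with a single TSS were upstream (interval 0 to 5.69%). Of all bound isolated genes with a single TSS, 13.4% were upstream. Cytosolic ribosomal proteins had 2 of 29 upstream, RpS9 (1333 at -79 bp) and RpL17 (868 at -5 bp, with replicate offsets of 13 and -5 bp). Mitochondrial ribosomal proteins had 0 of 14, Rab GTPases of membrane traffic 0 of 7 and the core spliceosome 0 of 4. Oxidative phosphorylation had 1 of 20 (ND-20), the proteasome 1 of 10 (Prosalpha5, 442 at -32 bp), the vacuolar ATPase 1 of 7 (Vha68-2, 229 at -49 bp) and the aminoacyl-tRNA synthetases 1 of 4 (AspRS-m, 471 at -66 bp).

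Developmental genes were more often upstream, though among the strongest peaks their share was near that of all bound genes. The 10 lists pooled here held signalling, patterning, neural, muscle, adhesion and hormone receptor genes. Together, 20 of their 62 bound isolated genes were upstream (32.3%, interval 20.9 to 45.3). With a single TSS it was 9 of 31 (29.0%, 14.2 to 48.0), against 13.4% of all bound isolated genes with a single TSS. The lists were pooled into these 2 groups after their values were seen, and no test was made between them. Some lists that could have been pooled were in neither group. Among these, insulin and TOR signalling had 2 of 12 genes upstream and ion channels and synapse 0 of 3. Heat shock genes and chaperones had 3 of 6, and cell cycle and replication genes 3 of 15. Signal moved with the grouping, with a median of 493 at the developmental and 753 at the maintenance genes. Among the weakest 3 of the 5 signal parts, 17 of 34 developmental and 4 of 27 maintenance genes were upstream. All bound isolated genes had shares of 37.8%, 22.3% and 17.6% in these parts. Among the strongest 2 parts, 3 of 28 developmental genes (10.7%, interval 2.27 to 28.2) and 2 of 68 maintenance genes (2.94%, 0.358 to 10.2) were upstream. All bound isolated genes had shares of 9.21% and 8.95% there. The part of signal in the difference was not tested further.

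Ligands and receptors were among the upstream developmental genes, but not only there. The receptors Notch (N, at 5 bp), robo1 (80 bp) and fz4 (245 bp), for example, had downstream summits. In Ras, EGFR and FGFR signalling 3 of 10 were upstream: bnl (321 at -84 bp, and -74 and -85 bp in replicates 1 and 3), the Ras inhibitor Nf1 (258 at -50 bp, 147 and -60 bp) and edl, a regulator of ETS factors (233 at -110 bp, -110 and 12 bp). In Wnt, Hedgehog and Dpp signalling it was 6 of 16. They were the Hedgehog receptor patched (ptc, 177 at -80 bp) and its transcription factor ci (268 at -93 bp), the Wnt receptor fz3 (rank 5829 of 6415 by signal, at -3 bp) and the Wnt inhibitor naked cuticle (nkd, 251 at -119 bp), sgg, and the Dpp pathway factor schnurri (shn, 463 at -161 bp). Of the replicates, both were upstream at ci and shn, while ptc, fz3, nkd and sgg were upstream in 1 replicate each. Of these genes, ci, nkd and ptc were also 3 of the 4 bound segmentation genes.

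Adhesion and guidance genes gave 6 of 15 upstream. Toll-7, a Toll family receptor, had 485 at -243 bp and neuroglian (Nrg), a cell adhesion protein of axons, 431 at -2 bp. The guidance ligand slit (sli) had 308 at -13 bp, its receptor robo2 235 at -39 bp, the integrin subunit scab (scb) 248 at -86 bp and the teneurin Ten-a 219 at -17 bp. Toll-7, Nrg, scb and robo2 were upstream in both replicates. Among neural genes Sox14 (638 at -255 bp) and elav, a neuronal RNA-binding protein kept in that list (458 at -253 bp), were upstream of 4 bound, and both replicates placed both upstream. Of 35 isolated mesoderm and muscle genes only tin was bound (329 at -168 bp, -172 and -103 bp), where 24.7% of all isolated genes were bound. Hippo signalling had 1 of 5, Cka (785 at -53 bp), and Notch signalling 1 of 7, E(spl)mbeta-HLH, a repressor that Notch switches on (179 at -77 bp). Ion channel and synapse genes had 0 of 3. None of the 7 isolated Hox genes was bound, too few genes to set against the 24.7% of all isolated genes.

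Other lists were small or near the share of all bound genes. Heat shock genes and chaperones had 3 of 6 upstream: the small heat shock genes Hsp27 (464 at -161 bp, -149 and -155 bp in replicates 1 and 3) and Hsp26 (184 at -84 bp, -86 and 16 bp), and Hsc70-3, the chaperone of the endoplasmic reticulum (361 at -39 bp, 49 and -12 bp). Cell cycle and replication genes had 3 of 15, Orc6, Cdk4 and BubR1, and insulin and TOR signalling 2 of 12, the insulin receptor InR (375 at -4 bp) and SNF4Agamma, a subunit of AMP-activated kinase (256 at -21 bp). Polycomb and Trithorax genes had 2 of 12, the neighbouring copies ph-p and ph-d (193 at -14 bp), and lipid metabolism 1 of 8, the carnitine palmitoyltransferase whd. Insulator proteins had 0 of 7, nuclear hormone receptors 0 of 3 and germline genes 0 of 3. Of 173 isolated chemosensory genes only Obp99b was bound (244 at -238 bp), and of 107 isolated cuticle protein genes none was. Over all isolated genes 24.7% were bound. Over all 28 lists, 38 of 223 bound genes were upstream (17.0%, interval 12.3 to 22.6).

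**Figure D5:**
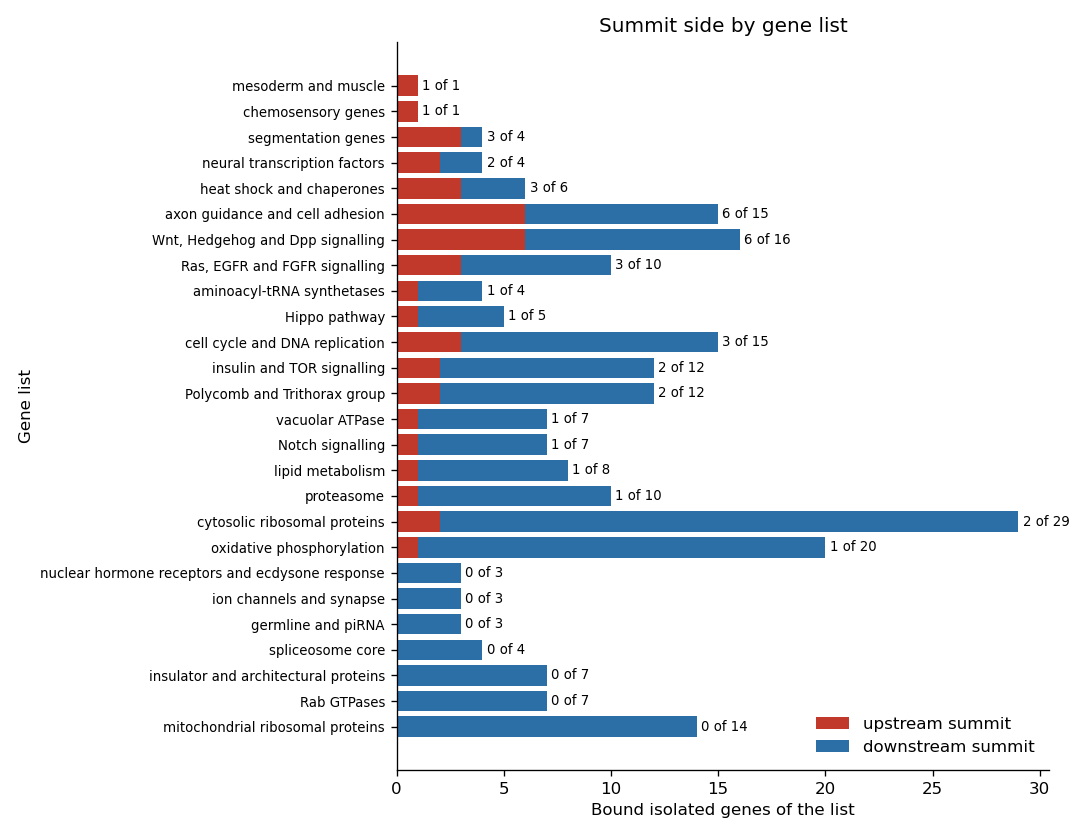
Number of bound isolated genes with an upstream summit (red) and a downstream summit (blue) in each of the gene lists with any bound gene, ordered by upstream share, with the upstream count out of all bound genes beside each bar. Wnt, Hedgehog and Dpp signalling (6 of 16) and adhesion genes (6 of 15) lie in the upper part, and cytosolic (2 of 29) and mitochondrial ribosomal proteins (0 of 14) in the lower part.

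Uncharacterised genes, those named only by a CG number, were 31.5% of upstream and 27.4% of downstream genes (difference 4.08 points, -0.946 to 9.40), and 38 of the 375 genes fell in any list.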

How the data were processed

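Per the labels, both samples were ChIP-seq on MESR4-GFP embryos. Per the deposited listings, peaks were called in dm6 for each replicate and for both together against a control alignment, and a threshold on the irreproducible discovery rate gave the reproducible list of 6415 summits. All of these were among the 6415 highest of the list of both replicates, which holds 30000 summits, as does each replicate list. The sources used here do not give the aligner, caller or depth, so the precision from read sampling is unknown. The deposited signal is the authors' enrichment value on a scale set per list. The authors' deposited −log10 q values were not used for ranking.

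Genes and TSSs came from Ensembl release 115 on the main arms, without the histone cluster. Offsets, shares (Clopper-Pearson) and differences (Newcombe, 95% level) were computed with Python 3.11.15, numpy 2.4.6, pandas 2.3.3 and scipy 1.17.1, and checked on simulated data. No p-value was computed. Windows of genes without a peak used the canonical TSS. The members and the 28 gene lists were chosen with earlier results of these data known. The lists came from general knowledge of fly genes, 26 of 747 symbols and patterns found no gene, and 1 misassigned alias was removed after seeing the matches. Genes named were those of highest signal, nearest and farthest summits, nearest non-coding TSSs, the strongest of each list and of each motif, plus CG15536, cib and the remaining genes, chosen after their values were seen. Alternatives were other windows, thresholds, TSS sets, isolation rules and single replicates. Leaving out a replicate meant taking the 6415 strongest summits of the other replicate's own list, with no threshold on reproducibility. Some members and the strongest summit at MESR4 are not reported here.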

Additional observations from a re-analysis of the deposited data

How the results depend on the processing

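Upstream shares depended on the settings, around 19.2%. The share was 17.3% with a window of 250 bp, 21.4% with 1000 bp, 11.8% in the stronger part of the summits, 15.8% with at least 50 bp between summit and TSS, 16.2% with the canonical TSS alone and 21.6% with isolation of 2000 bp. With alternatives chosen after seeing the data it was 13.4% in genes with 1 TSS and 12.4% for summits before every own TSS. It ranged from 16.6% without replicate 3 to 23.7% without replicate 1. Of the 375 genes, 325 still had a summit without replicate 1, and 262 of these remained upstream. Without replicate 3, 329 still had a summit and 267 of them remained upstream. The ratio of median signals (0.661) stayed below 1 throughout, at 0.845 in the stronger summits, 0.598 with at least 50 bp, 0.628 with isolation of 2000 bp, 0.614 for the summit nearest to a TSS, 0.633 with 1 TSS, 0.618 before every own TSS, and 0.699 to 0.742 when leaving out a replicate. The difference in single-TSS genes (-24.3 points) ranged from -27.4 to -13.5 without a replicate and was -14.3 with the canonical TSS alone. It turned to 0.573 for summits before every own TSS, where upstream genes with a summit between their TSSs drop out by construction and downstream genes all stay. The difference in non-coding TSSs (1.94 points) had an interval clear of 0 with a window of 1000 bp (3.62), in the stronger summits (4.81), within 200 bp of the summit (2.89) and without either replicate (3.64 to 4.45), and the cause was not tested. With isolation from every annotated gene it was 0 points by construction. Of 11 motifs, 7 had an interval clear of 0 within 50 bp of the summit and 5 within 100 bp, where the Motif 1 core changed sign (-2.04 points). The share of list genes (17.0%) ranged from 14.1% to 21.8% without a replicate. No paired analysis was possible because there was 1 group. Depth was unknown, and 2 replicates, both used to make the reproducible list, give no independent check of position.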
